A study of Mus musculus with 10 samples.

Results

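The genes described here are Acer2, which encodes alkaline ceramidase 2, and 9 further genes of sphingolipid metabolism and signalling, 10 of the 12978 genes that could be tested in mouse hypothalamus. Each gene was read from the probe set that a platform annotation pairs with it alone, taking the brightest where there were several. Acer2 and its companions were put together with the tumour-bearing against control values of these same arrays known. Their differences are therefore given as a description, with a standard error (SE) but without a p-value.

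All animals were male CDF1 mice (BALB/c x DBA/2), 10 to 11 weeks old, and were killed on day 20 after the injection. The tumour was C26, a transplantable colon adenocarcinoma line used to model cancer cachexia, of which each tumour-bearing mouse was given 1000000 cells in 0.2 ml of salt solution under the skin of the flank. Control mice had a sham injection of 0.2 ml. There were 8 individual arrays, from 3 controls and 5 tumour-bearing animals. The pooled arrays, 1 per group, held RNA of 4 control and of 5 tumour-bearing mice, and the labels do not say whether these are the mice of the individual arrays. Values are log2 RMA levels, in which a difference of 1 is a doubling. Correlations between individual arrays over the tested probe sets were 0.980 to 0.989. The pools correlated with each other at 0.991 and with the individual arrays at 0.977 to 0.986. Of 14 listed hypothalamic markers 11 had a probe set of their own, and all 11 passed the filter on low values.

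Sphingolipids are membrane lipids built on a long-chain base. Serine palmitoyltransferase starts their synthesis, ceramide is the hub from which sphingomyelin and glycosphingolipids are made, and ceramidases release sphingosine, the precursor of the signalling lipid sphingosine 1-phosphate (S1P). In brain these lipids are abundant in myelin, and S1P receptors act in vessels and glia.

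The promoter windows of Acer2 and Acer3 are shown because these alkaline ceramidases, which carry out the same reaction, had the largest differences of the 10 genes in opposite directions. The sequences are from RefSeq (GRCm38.p6) and end at the base before the annotated start used, or before the earliest annotated start where that lies further upstream. Capitals mark the GC box GGGCGG on either strand.
Acer2, chr4:86874164-86874347, plus strand: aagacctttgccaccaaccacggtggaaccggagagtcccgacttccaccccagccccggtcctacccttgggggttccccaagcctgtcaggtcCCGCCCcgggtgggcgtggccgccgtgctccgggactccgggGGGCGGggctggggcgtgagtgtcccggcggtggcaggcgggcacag
Acer3, chr7:98309543-98309792, minus strand: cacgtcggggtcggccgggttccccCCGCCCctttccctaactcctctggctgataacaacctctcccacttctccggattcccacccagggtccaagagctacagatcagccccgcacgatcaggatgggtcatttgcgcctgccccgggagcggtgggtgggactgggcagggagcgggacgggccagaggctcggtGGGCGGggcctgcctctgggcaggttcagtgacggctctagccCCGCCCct
Over the full windows of 300 bases, 8 of the 10 genes had an entry (none for Asah1 and S1pr1), with 12 windows between them. A GC box was in 8 of the 12 windows, against 35.7% of all 32851 promoter windows. The share of G and C was 73.0% for Acer2 and 68.0% for this Acer3 window, and over the 12 windows it ranged from 46.0% to 81.3% and was above the median of all windows (52.7%) in 10. The letters TATAAA (in 13.6% of all windows), CACGTG (7.15%) and AGAACA (19.0%), each searched on both strands, were not in the Acer2 window. These are matches of letters only.

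Acer2 was higher in every tumour-bearing mouse than in any control. Its level was 6.92, 7.36 and 7.36 in controls 1, 2 and 3, and 7.96, 7.80, 8.02, 8.14 and 8.04 in tumour-bearing mice 1 to 5. The lowest tumour-bearing mouse thus lay above the highest control, and control 1 lay below the other controls. The means were 7.21 ± 0.25 (SD, n = 3) and 7.99 ± 0.13 (SD, n = 5), a difference of 0.78 ± 0.11 SE on the log2 scale, or 1.72-fold. Ordered by signed difference, Acer2 was 20th from the top among the 12978 genes. The groups were separated in this direction in 3.11% of all tested genes, and nothing is read from that share because Acer2 was chosen from this contrast. Without control 1 the difference was 0.63, and over the single arrays left out it ranged from 0.63 to 0.86. The pools differed in the same direction, 7.10 for control and 7.82 for tumour-bearing.

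A second Acer2 probe set, which the annotation pairs with another transcript record, was dim. It lay between 3.41 and 3.73 on all 8 individual arrays, below the filter level of 4.32 (20 on the linear scale), and its group means were 3.62 and 3.61. The higher Acer2 level therefore rests on 1 of 2 probe sets. With the mean of both probe sets in place of the brighter, the difference was 0.39.

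**Figure D1:**
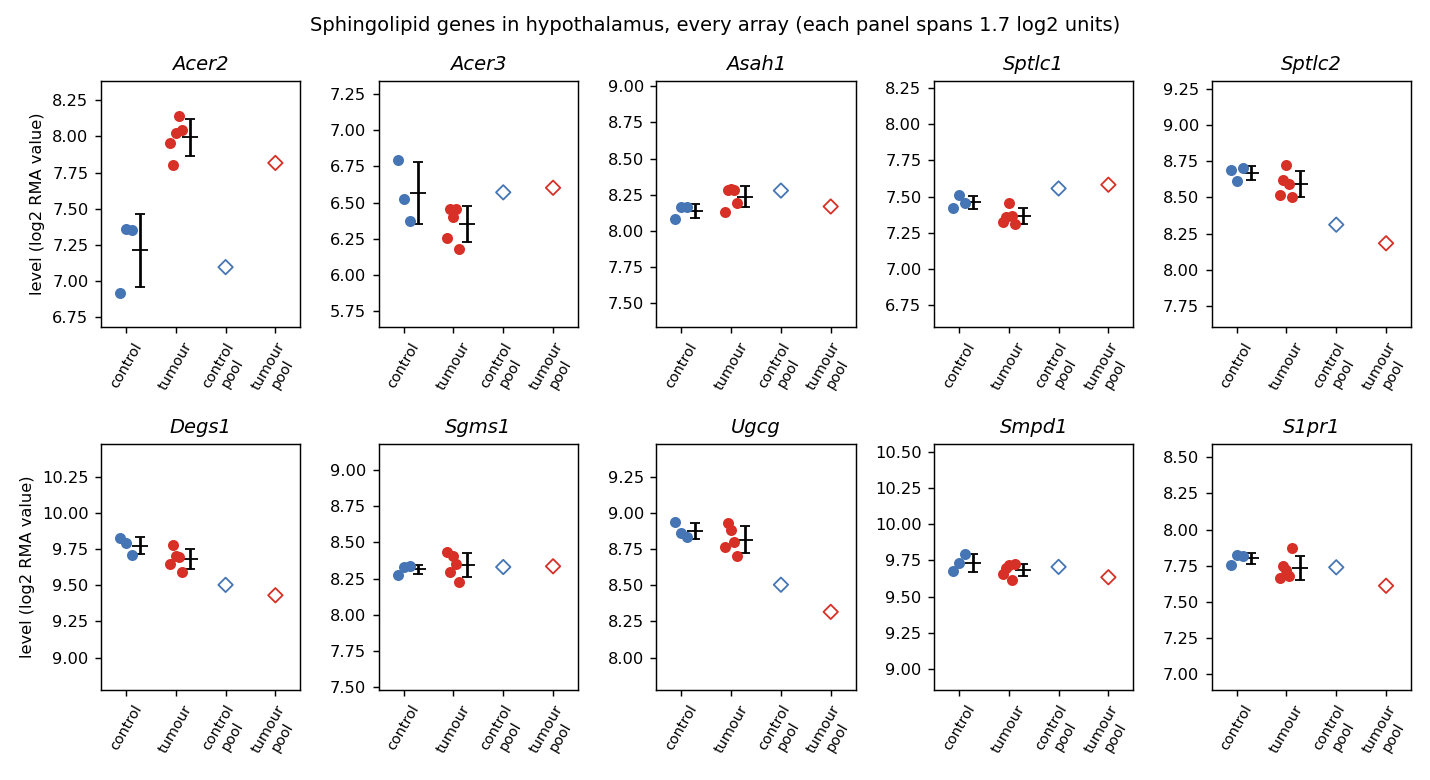
Levels (log2 RMA value, vertical axes of equal span) of the 10 sphingolipid genes on every array. Filled points are individual mice (3 controls, 5 tumour-bearing), black bars are mean ± SD, and open diamonds are the pooled arrays; Acer2 is the gene whose groups do not overlap, with 6.92 to 7.36 in controls and 7.80 to 8.14 in tumour-bearing mice.

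The other ceramidase genes did not share this pattern. Acer3, a further alkaline ceramidase, was 6.80, 6.53 and 6.37 in controls 1 to 3 and 6.26, 6.46, 6.40, 6.45 and 6.18 in tumour-bearing mice 1 to 5. The groups overlapped, with 3 tumour-bearing mice above control 3. The difference was -0.22 ± 0.11 SE, and -0.0996 without control 1, the highest array. The Acer3 pools were nearly level, at 6.57 for control and 6.60 for tumour-bearing. Asah1, the acid ceramidase of lysosomes, was 8.08, 8.16 and 8.17 in controls and 8.13, 8.29, 8.29, 8.28 and 8.19 in tumour-bearing mice. Of the tumour-bearing mice 4 lay above every control, by a small margin, and the difference was 0.10 ± 0.05 SE. In the pools Asah1 went the other way, from 8.28 in control to 8.17 in tumour-bearing.

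Sptlc1, Sptlc2 and Degs1, the genes of ceramide synthesis among the 10, were slightly lower in tumour-bearing mice, with overlapping groups. Of 11 other de novo synthesis genes tested, 4 were above 0 and 7 below, with a median of -0.02. Sptlc1 and Sptlc2 encode the subunits of serine palmitoyltransferase, and Degs1 the desaturase that completes ceramide. Sptlc1 had means of 7.46 ± 0.04 (SD, n = 3) and 7.37 ± 0.06 (SD, n = 5), a difference of -0.10 ± 0.05 SE. Tumour-bearing mouse 3, at 7.46, was the only one of its group within the control range of 7.42 to 7.51. Sptlc2 was 8.67 ± 0.05 (SD, n = 3) and 8.59 ± 0.09 (SD, n = 5), and tumour-bearing mouse 3, at 8.72, was again the highest of its group and here above every control. The Sptlc2 difference of -0.08 ± 0.05 SE was -0.12 without tumour-bearing mice 3 and 4. Degs1 was 9.82, 9.79 and 9.71 in controls and 9.65, 9.78, 9.70, 9.69 and 9.59 in tumour-bearing mice, a difference of -0.09 ± 0.05 SE. Here tumour-bearing mouse 2 was the one inside the control range.

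Sgms1, Ugcg, Smpd1 and S1pr1 differed less. Sgms1, which transfers a head group to ceramide to make sphingomyelin, had a control mean of 8.31 ± 0.03 (SD, n = 3) and a tumour-bearing mean of 8.34 ± 0.08 (SD, n = 5), a difference of 0.03 ± 0.05 SE. Tumour-bearing mice lay on either side of the controls, from 8.23 to 8.44. Leaving out control 1 gave 0.011, and leaving out tumour-bearing mice 1, 3 and 5 in turn gave 0.0062, 0.014 and 0.058. Ugcg, the glucosylceramide synthase, was 8.94, 8.86 and 8.83 in controls and 8.77, 8.93, 8.88, 8.80 and 8.70 in tumour-bearing mice, a difference of -0.06 ± 0.06 SE. Leaving out control 1 gave -0.030, and leaving out tumour-bearing mouse 5 gave -0.032. Smpd1, the acid sphingomyelinase, was 9.73 ± 0.06 (SD, n = 3) and 9.68 ± 0.04 (SD, n = 5), a difference of -0.05 ± 0.04 SE. It was -0.019 without control 3, -0.033 without tumour-bearing mouse 4 and -0.079 without control 1. S1pr1, the S1P receptor of endothelium and astrocytes, was 7.80 ± 0.04 (SD, n = 3) and 7.74 ± 0.08 (SD, n = 5). Tumour-bearing mouse 5, at 7.87, was above every control and the other 4 below all of them. The S1pr1 difference was -0.06 ± 0.06 SE, and -0.097 without tumour-bearing mouse 5.

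Acer2 thus stood apart from the other 9 genes in size, as these differed by between -0.22 and 0.10. Of the 10 genes 3 were above 0 and 7 below 0, with a median of -0.06, and over all tested genes 54.5% were below 0 with a median of -0.01. In the main fit none of the 10 passed limma's adjusted threshold of 0.05, which 10 of 12978 genes (0.0771%) did. Acer2 passed it in 5 of 19 alternative settings, and no other of the 10 did in any. These 5 were the filter at 50, array weights, pools added, only single-gene probe sets tested, and tumour-bearing mouse 2 left out. Nothing is read from these counts since the genes were chosen from this contrast. Of 19 alternative settings 14 could move the Acer2 value and 13 that of each other gene, and in these every difference kept its sign.

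The sign of the pool difference matched that of the individual arrays in 7 of the 10 genes, the exceptions being Acer3, Asah1 and Sptlc1. The pools also differed from the individual arrays in level. Both pools lay below all 8 individual arrays for Sptlc2 (8.31 and 8.18), Degs1 (9.50 and 9.43) and Ugcg (8.50 and 8.32), and above all of them for Sptlc1 (7.56 and 7.58). Among all tested genes, both pools lay below every individual array in 11.8% and above in 13.0%. Levels of the pools are therefore set against each other only.

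**Figure D2:**
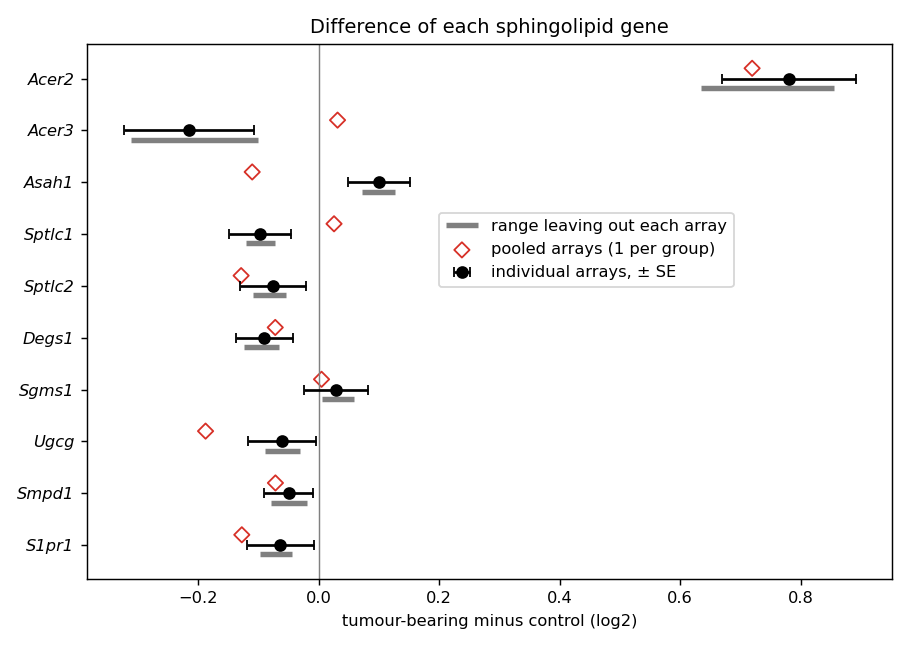
Tumour-bearing minus control difference (log2, horizontal axis) of each gene. Black points with bars are the individual arrays ± SE (3 controls, 5 tumour-bearing), grey bars the range when each array is left out in turn, and open diamonds the pools; Acer2 lies at 0.78 (0.72 in the pools) and the other genes between -0.22 and 0.10.

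Other genes of sphingolipid metabolism were taken by role. Of 70 listed, 4 had no probe set of their own and 5 were too low to test. None of the 61 tested passed limma's adjusted threshold (smallest adjusted p = 0.226), and 9 (14.8%) had an unadjusted p under 0.05, against 10.3% of all tested genes. Lower differences were more frequent, with 43 below 0 (70.5%, against 54.5% of all tested genes) and 18 above. The median was -0.04 against -0.01 over all genes. The groups did not overlap in 7 of the 61: 6 (9.84%, against 5.19% of all tested genes) had every tumour-bearing mouse below every control, and 1 (1.64%, against 3.11%) had every one above. In 3 of the 6 lower genes, Asah2, Cerk and Gla, the pools differed in the other direction.

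The largest difference was that of Ugt8a, the enzyme that makes the galactosylceramide of myelin. It was 9.15, 8.89 and 8.88 in controls and 8.01, 8.79, 7.92, 8.22 and 7.86 in tumour-bearing mice, a difference of -0.81 ± 0.19 SE (limma adjusted p = 0.241). Tumour-bearing mouse 2 lay nearest to the controls, and without it the gene passed the threshold (-0.97 ± 0.10 SE, limma adjusted p = 0.0136, with 0.0136 to 0.739 over all settings). S1pr5, the S1P receptor of oligodendrocytes, was 7.15, 7.46 and 7.37 in controls and 7.02, 6.97, 6.61, 6.91 and 6.67 in tumour-bearing mice, a difference of -0.49 ± 0.11 SE (limma adjusted p = 0.226). The other S1P receptor genes tested, S1pr2 and S1pr3, differed by -0.0016 and -0.0028. Among these receptor genes S1pr5 was thus the one with separated groups.

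Of the other ceramidase genes Asah2, the neutral ceramidase, was measured above the filter level and Acer1 was not. Asah2 was 7.86, 8.01 and 8.13 in controls and 7.74, 7.81, 7.67, 7.58 and 7.63 in tumour-bearing mice. All tumour-bearing mice lay below all controls, the opposite arrangement to Acer2, with a difference of -0.32 ± 0.07 SE (limma adjusted p = 0.241). The Asah2 pools differed by 0.03 only, from 7.72 to 7.75.

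The remaining roles gave smaller or more scattered differences. Gltp, a glycolipid transfer protein, was 8.25 ± 0.12 (SD, n = 3) and 7.93 ± 0.19 (SD, n = 5), a difference of -0.31 ± 0.11 SE (limma adjusted p = 0.358). St8sia5, a sialyltransferase of ganglioside synthesis, differed by -0.34 ± 0.10 SE (limma adjusted p = 0.319). Among de novo synthesis genes Sptssb, a small subunit of serine palmitoyltransferase, differed by -0.37 ± 0.22 SE, with control 1 and tumour-bearing mice 4 and 5 under the filter level. It was -0.63 without control 1 and -0.23 without control 3. Sgpp2, an S1P phosphatase, differed by -0.20 ± 0.14 SE, and its controls were spread from 7.13 to 7.82. Without control 1 it was -0.43, and without control 2 or control 3 it was -0.091 or -0.087. Gla, the lysosomal alpha-galactosidase, had separated groups and differed by -0.17 ± 0.07 SE, with pools at 6.79 for control and 6.86 for tumour-bearing. Smpdl3b, a sphingomyelinase-like enzyme, differed by 0.12 ± 0.09 SE, and by 0.080 without control 3. The limma adjusted p of these 4 was 0.413 to 0.681. The other genes with separated groups, picked out after their values were seen, were Cerk (-0.26 ± 0.08 SE), Plpp3 (-0.14 ± 0.04 SE) and, in the higher direction, Smpd3 (0.10 ± 0.06 SE). The Cerk pools were 7.31 for control and 7.42 for tumour-bearing.

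**Figure D3:**
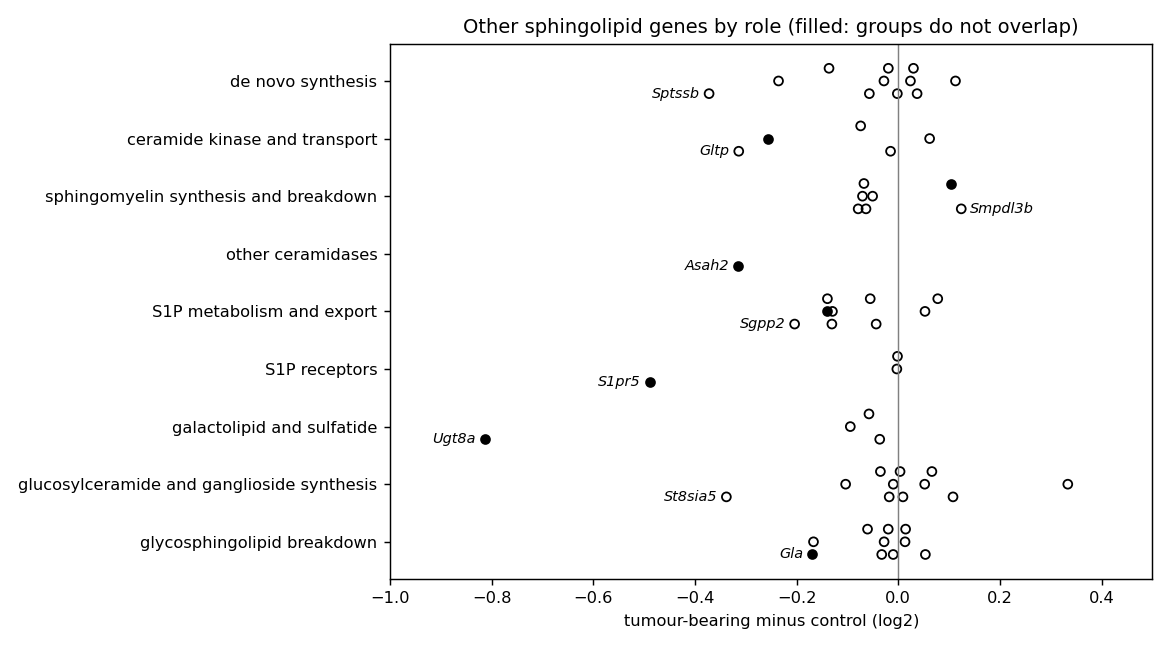
Tumour-bearing minus control difference (log2, horizontal axis) of the 61 other sphingolipid genes tested, by role; each point is 1 gene, filled where all tumour-bearing mice lie on one side of all controls. Ugt8a (-0.81) and S1pr5 (-0.49) lie farthest from 0, and none passed the adjusted threshold.

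Marker lists of other cell types and of neighbouring tissue were set beside these values. None of the 78 markers tested in 9 lists passed limma's adjusted threshold (smallest adjusted p = 0.0597), which 0.0771% of all tested genes did. Of the 78, 29 had an unadjusted limma p under 0.05, against 10.3% of all tested genes. Of 15 listed oligodendrocyte markers 2 had no probe set of their own, and all 13 tested were below 0 (median -0.45), and their mean centred level was 0.22 to 0.29 in controls and -0.48 to 0.16 in tumour-bearing mice. With the group means removed, that level correlated over the 8 arrays with Gltp at 0.89 (Spearman 0.738), Ugt8a at 0.855 (Spearman 0.762), Cerk at 0.787 (Spearman 0.857) and S1pr5 at 0.693 (Spearman 0.690). Without the 2 arrays farthest from the median marker level these were 0.591, 0.518, 0.790 and 0.730. Asah2 had 0.368 (Spearman 0.190) and -0.225 without those arrays. The other sphingolipid genes examined had lower values than the first 4. These were Fa2h 0.41, St8sia5 0.365, Sptssb 0.239, Plpp3 0.222, Sgpp2 -0.0124, Gla -0.182, Smpdl3b -0.422 and Smpd3 -0.536. For scale, Degs1 had 0.737 with this marker level, and 3.97% of all tested genes had a value as high. In bulk tissue fewer cells of a type and less RNA per cell cannot be told apart, and the part of oligodendrocyte content in these differences was not tested.

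The marker level that separated the groups in the direction of Acer2 was that of the hypothalamus itself. Of its 11 tested markers 9 were above 0 (median 0.21), and the level was -0.215 to -0.128 in controls and -0.113 to 0.245 in tumour-bearing mice. For 4 of them every tumour-bearing mouse lay above every control, as in 3.11% of all tested genes. These were the neuropeptide genes Npy (0.84 ± 0.23 SE), Oxt (0.66 ± 0.18 SE), Avp (0.50 ± 0.07 SE) and Trh (0.49 ± 0.09 SE), with limma adjusted p of 0.284, 0.277, 0.0597 and 0.135. The groups overlapped for the rest, among them the transcription factor genes Nkx2-1, Sim1 and Otp (above 0) and Rax. The 2 markers below 0 were Rax (-0.10) and Pomc (-0.17). With group means removed, Acer2 correlated with the hypothalamic marker level at 0.611 (Spearman 0.595), and 0.610 without the 2 arrays farthest from the median marker level.

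Over the 9 lists the correlation of Acer2 was highest with choroid plexus markers, at 0.742 (Spearman 0.714), and 0.867 without the 2 farthest arrays. A value as high with this list was found for 2.07% of tested genes, a share that makes no allowance for picking the highest of 9 lists. Of 6 listed choroid plexus markers 3 were too low to test. All 3 tested were above 0, and their level was -0.373 to 0.0295 in controls and -0.193 to 0.418 in tumour-bearing mice. In the pools it was -0.033 for control and 0.007 for tumour-bearing. Ttr had an SD of 0.62 in controls and 0.72 in tumour-bearing mice, against 0.06 to 0.14 for Kl and Clic6. The choroid plexus level therefore mostly follows Ttr, a single gene. For endothelial markers the correlation was 0.584 and for neuronal markers 0.659, falling to 0.336 and -0.0553 without the 2 farthest arrays. With oligodendrocyte markers it was -0.353 (Spearman -0.0476), and 0.0164 without the 2 farthest.

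The 13 tested endothelial markers had a median of -0.02 with 5 above 0 and 8 below. Their mean centred level was -0.20 to 0.10 in controls and -0.083 to 0.17 in tumour-bearing mice. The endothelial marker with the largest difference was Vwf, von Willebrand factor, at 0.82 ± 0.19 SE (limma adjusted p = 0.240). Anterior pituitary markers were above 0 in all 4 tested members, and their level was 1.47 and 1.41 in tumour-bearing mice 3 and 4 against -0.89 to -0.21 on the other 6 individual arrays. The tumour-bearing pool was also high, at 1.15 against -0.36 in the control pool. Without tumour-bearing mice 3 and 4 the Acer2 difference was 0.72. Acer2 correlated with the pituitary level at 0.240, and -0.104 without the 2 farthest arrays. All 8 tested midbrain and hindbrain monoamine markers were below 0, with a level of 0.18 to 0.69 in controls and -0.83 to 0.23 in tumour-bearing mice. Acer2 correlated with that level at 0.0466 once group means were removed, and at 0.866 without the 2 farthest arrays. The part of these tissues in the Acer2 difference was not tested.

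Among the 10 genes, Degs1 and Ugcg followed each other most closely from mouse to mouse. Once group means were removed their correlation over 8 arrays was 0.929 (Spearman 0.929), and 0.897 without the 2 arrays farthest from the median Degs1 level. A correlation with Degs1 as high was found for 0.208% of tested genes. Acer3 joined them at 0.863 with Degs1 and 0.790 with Ugcg, whereas Acer2 had -0.638 with Acer3, -0.615 with Ugcg and -0.574 with Degs1. Without the 2 arrays farthest from the median Acer2 level these last 3 were 0.131, 0.0283 and 0.187, so their sign rests on those arrays. Degs1 and Ugcg also followed the microglial marker level, at 0.903 and 0.927 (0.691 and 0.775 without the 2 farthest arrays). Other glial lists were followed as well, at 0.801 and 0.777 for astrocyte and 0.737 and 0.624 for oligodendrocyte markers. Without the 2 farthest arrays these were 0.368 and 0.228, and -0.0318 and -0.571. All arrays share 1 normalization, and 45 pairs of genes and 90 pairs of gene and marker list were computed, so these values are descriptions.

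**Figure D4:**
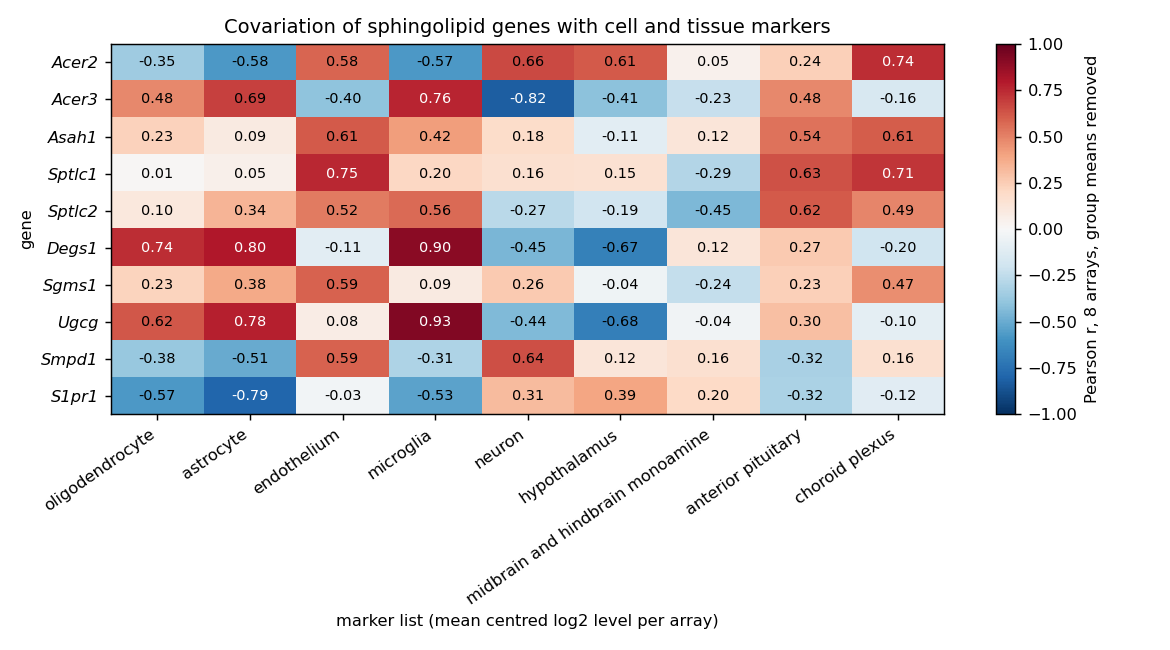
Pearson correlation (colour and number) of each of the 10 genes with the mean level of each marker list over the 8 individual arrays, after group means were removed. Degs1 and Ugcg have the highest values with microglial markers (0.903 and 0.927), and Acer2 ranges from -0.578 with astrocyte to 0.742 with choroid plexus markers.

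The genes most like Acer2 over the 8 individual arrays were Pxylp1 (r = 0.981), Aass (0.976), Trh (0.970), Nr2c2 (0.967) and Mir149 (0.960). These values include the group difference, which Trh shares at 0.49 ± 0.09 SE, and the other 4 had differences of 0.10 to 0.32. Without the 2 arrays farthest from the median Acer2 level r was 0.926 to 0.975. With group means removed the 5 had 0.733 to 0.877, and then -0.0960 to 0.302 without the 2 farthest arrays. The genes closest to Acer2 after removing group means were Sh3glb2 (0.976), Fut2 (0.970), Setd3 (0.963), Ripor1 (0.960) and Atmin (0.952), with 0.757 to 0.902 without the 2 farthest arrays.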

How the data were processed

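RNA of mouse hypothalamus was hybridised to Affymetrix whole-transcript arrays. The deposited values are log2 expression levels made by the authors with RMA, per the submitters' processing notes; the log2 scale was inferred from their range, and neither the RMA version nor a genome build is given in the sources used here. Arrays treated by RMA share a distribution and show compressed differences, so a shift of all genes together cannot be seen. Of 35556 probe sets, 21218 were paired with 1 gene; 22837 exceeded a linear value of 20 (log2 4.32) on 3 or more individual arrays and were tested.

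The contrast of tumour-bearing and control mice was fitted in R 4.3.3 with limma 3.58.1 (lmFit and a trended eBayes), adjusted by Benjamini-Hochberg over all tested probe sets at 0.05. On simulated data for these 22837 probe sets it recovered 26% of changes of 0.25, 50% of 0.5, 86% of 1 and 98% of 2 on the log2 scale. There 50 probe sets were changed per size, with independent normal noise at the fitted spread of each probe set. The rates hold for that setting only and are not read as the power of the test on the real arrays. A marker level is the mean of a list's log2 values, each centred over the 8 arrays. The pools entered no main test. The number of arrays limits precision.

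The members, the gene lists and the tests were chosen with earlier results of these data known. The text names all 10 members, per pathway role the called genes or else the one with the largest difference, and the 5 genes most correlated with Acer2 by either measure. Replicate numbers name different mice. Alternatives covered the filter, variance model, normalization, array weights, replicate block, pools, probe sets and left-out arrays. Figures were drawn with matplotlib 3.10.9.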

Additional observations from a re-analysis of the deposited data

Results flagged for a closer look

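Among 29 named genes, whose 5 tumour-bearing values were each examined for a single array far from the rest, 2 had one, and in both it was tumour-bearing mouse 2 at the low end. Chance flags about 1 in 20 groups, and 2 of 29 is not far from that rate. Pxylp1, the gene with the highest correlation with Acer2, was 6.06 in mouse 2, with a gap to the next mouse of 0.735 of the group's range. Fut2 was 3.98 in mouse 2, with a gap of 0.839 of the range, and that level lies under the filter level. Mouse 2 was also the lowest tumour-bearing mouse for Acer2, at 7.80, though not by such a gap. Pxylp1 and Fut2 were among the genes chosen for their correlation with Acer2. Mouse 2 was the lowest tumour-bearing mouse for every gene chosen in that way. The shared mouse therefore follows from the choice of genes, and nothing is read from it.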

How the results depend on the processing

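The Acer2 difference was 0.39 with the mean of its probe sets and otherwise 0.63 to 0.86 with an array left out. Over all probe sets 13 were called. The count was 4 without the intensity trend, 5 without the filter, 23 with the filter at 50, 24 with array weights, 72 with only single-gene probe sets tested, 0 without tumour-bearing mice 3 and 4, and 0 to 66 with 1 array left out (0 without control 3, 66 without tumour-bearing mouse 2). With the replicate number as a block it was 0. The 3 same-numbered pairs of mice had correlations of -0.0020 to 0.0089, and differently numbered pairs -0.041 to 0.030. These values showed no pairing by number over all tested probe sets, and a pairing limited to some of them was not tested. The count of other sphingolipid genes called was 0 to 1 with an array left out (Ugt8a without tumour-bearing mouse 2) and 0 in every other setting. The number below 0 among the 10 genes was 7 in every setting; the variance models, both filter changes and the restriction to single-gene probe sets cannot move a difference.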

Other observations

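Control 1 lay away from the other controls for several sphingolipid genes. It was lowest for Acer2 (6.92 against 7.36 and 7.36), Sgpp2 (7.13 against 7.81 and 7.82), Sptssb (4.15 against 4.87 and 4.95) and Fa2h, the fatty acid hydroxylase of myelin lipids (8.00 against 8.54 and 8.49), and highest for Acer3 (6.80 against 6.53 and 6.37). The endothelial marker level of control 1 was -0.20, against 0.03 and 0.10 in the other controls, and its neuronal marker level -0.07, against 0.12 and 0.14. Its midbrain and hindbrain monoamine level was 0.18, against 0.69 and 0.60, and its choroid plexus level -0.37, against -0.07 and 0.03. For microglial, astrocyte and anterior pituitary markers control 1 was instead the highest control. These genes and marker lists were picked out after their values were seen.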
